A study of Arabidopsis thaliana with 14 samples.

Results

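The 5 genes described here encode methyl- and glucosyltransferases that act on compounds of the phenylpropanoid pathway. They are CCOAMT (AT1G67980), UGT72E1 (AT3G50740), UGT72E2 (AT5G66690), UGT84A3 (AT4G15490) and UGT84A4 (AT4G15500). They were chosen by name, as the probe sets annotated to these loci, with earlier results of these data known. Each was named by 1 probe set that names no other gene. They are 5 of 13286 genes that a probe set of the array named alone.

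Plants make phenylpropanoids from phenylalanine, by way of cinnamic acids bound to coenzyme A. Caffeoyl-CoA O-methyltransferases turn caffeoyl-CoA into feruloyl-CoA on the way to lignin, the polymer that stiffens and waterproofs cell walls. Glucosyltransferases of the UGT72E group attach glucose to the alcohols and aldehydes from which lignin is built, and those of the UGT84A group make glucose esters of acids such as sinapate, whose esters screen leaves from ultraviolet light.

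RNA from leaves of Arabidopsis thaliana in the Col-0 background, 1 month old, was measured on 14 ATH1 arrays, 1 sample per array. The groups were the CAMTA5 overexpression line OX-5 after 14 days of drought (2 arrays), the mutant line camta5-a, called camta5 here, after 14 days of drought (3 arrays), wild-type Col-0 after 14 days of drought (3 arrays), camta5 with water (3 arrays) and Col-0 with water (3 arrays). CAMTA5 is a calmodulin-binding transcription activator, and the title of the series names drought tolerance beside its overexpression. OX-5 is 1 line, the promoter that drives the transgene and the lesion of camta5-a are not given in the sources used here, and no watered OX-5 samples were analysed here, so an OX-5 value after drought is not a drought response of that line. The labels call the replicates biological without saying whether they came from separate plants. The p-values therefore set group differences against the spread between these samples, estimated over all 5 groups, whatever that spread stands for. The genotype entry of camta5 water replicate 1 reads wild type, against its title. It was grouped by its title, and its signals of the 5 genes lay within the range of the other watered arrays except for CCOAMT (37.7, against 39.9 to 92.6 on the others) and UGT84A4 (50.04, against 67.8 to 99.9).

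The values are MAS5 signals, which are linear brightness values scaled to a common trimmed mean on each array. Signals of different probe sets are not compared here. The OX-5 arrays stood apart from the other 12 across all probe sets, with Spearman coefficients of 0.805 to 0.865 against them. The other 12 had coefficients of 0.896 to 0.960 among themselves. The OX-5 arrays were also less alike than the replicates of any other group, with 0.903 between them, against 0.942 to 0.956 within the groups of 3. Whether the spread estimated over all groups holds for OX-5 was not tested. CAMTA5 itself had signals of 402 and 290 on the OX-5 arrays. The drought arrays had 265 to 306 in camta5 and 146 to 232 in Col-0, and the watered arrays 154 to 191 and 115 to 179. Both OX-5 signals exceeded every Col-0 signal, but the dimmer, 290, did not exceed the brightest camta5 signal, 306. The CAMTA5 signal thus bears out the overexpression label only in part, and no test of it is given here. Where the camta5-a lesion lies relative to the probe set is not given, so the CAMTA5 signal checks the label of camta5 in no direction.

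All differences are on the log2(signal + 16) scale, which understates the change of dim probe sets, and are given ± SE from 1 limma fit of all 14 arrays and 15646 probe sets. A gene was called where its Benjamini-Hochberg adjusted p from limma, over all 15646 probe sets, was under 0.05. The filter on low values asked for a signal above the 40th percentile in 2 or more arrays. That percentile was 104 and 88.8 on the OX-5 arrays and 63.9 to 74.5 on the others. All 5 genes were tested, and each would also have passed on the other 12 arrays. UGT72E1 and UGT84A3 exceeded the percentile on all 14 arrays, UGT72E2 on 10, UGT84A4 on 6 and CCOAMT on 5.

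Of 10 fixed mesophyll markers 2 were measured, and both were bright on all arrays. PSBY, a photosystem II protein, had 18743 and 17909 on the OX-5 arrays, against 8457 to 14834 in camta5 and 5597 to 11258 in Col-0 in drought, and was called higher in OX-5 against both (1.14, limma, adjusted p = 0.00252 against Col-0, and 0.76, adjusted p = 0.0293 against camta5). PSAN, a photosystem I subunit, had 15555 and 13468 in OX-5, against 10321 to 12829 in camta5 and 7619 to 13737 in Col-0 in drought, and was called neither against camta5 (adjusted p = 0.238) nor against Col-0 (adjusted p = 0.0847). The trichome marker TRY had 158 and 27.9 in OX-5, against 147 to 336 in camta5 and 127 to 218 in Col-0 in drought, and was called lower in OX-5 against camta5 (-1.46 ± 0.45, adjusted p = 0.0164) but not against Col-0 (-1.03 ± 0.45, adjusted p = 0.0723). The guard cell marker FMA had 110 and 262 in OX-5, against 213 to 310 in camta5 and 227 to 275 in Col-0 in drought, and was not called. For drought against water PSAN and PSBY fell in Col-0 (-0.83 and -1.36, adjusted p = 0.00488 and 0.00103) and in camta5 (-0.79 and -0.98, adjusted p = 0.0119 and 0.0130), and TRY fell in Col-0 (-1.21, adjusted p = 0.0363). The 1 measured root hair marker, EXPA7, was at 5.8 and 41.3 on the OX-5 arrays, against 1.8 to 43.8 elsewhere, and markers of phloem, xylem, flower and seed were not analysed here, and the part of cell types in the results was not tested. In whole leaves, a different share of a cell type and a different RNA level per cell cannot be told apart.

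CCOAMT, annotated as a caffeoyl-CoA O-methyltransferase, was bright in OX-5 and dim in every other group. Its signal was 11028 and 9508 on the OX-5 arrays. On the camta5 drought arrays it was 31.2, 45.0 and 78.1, and on the Col-0 drought arrays 23.3, 23.2 and 27.8. With water it was 37.7, 92.1 and 39.9 in camta5 and 68.4, 92.6 and 55.2 in Col-0. Both OX-5 arrays lay far above all 12 other arrays, whose highest signal was 92.6. The mean was 10268 ± 1075 (SD, n = 2) in OX-5 and 24.8 ± 2.61 (n = 3) in Col-0 in drought, a log2 difference of 7.98 ± 0.35 (limma, adjusted p = 7.59e-10). Against camta5 in drought, at 51.4 ± 24.1 (n = 3), the OX-5 difference was 7.31 ± 0.35 (adjusted p = 1.86e-09). Both comparisons use the same 2 OX-5 arrays. The size of these differences depends on the offset added before the logarithm, since the other arrays are dim. Against Col-0 it was 8.64 with an offset of 1 and 6.86 with an offset of 64, and against camta5 it was 7.71 and 6.50.

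Among the 12 other arrays CCOAMT was also lower after drought in Col-0. No Col-0 drought array exceeded 27.8, and no Col-0 water array was under 55.2. The log2 difference was -1.09 ± 0.31 (limma, adjusted p = 0.0188). None of the 3 Col-0 drought arrays exceeded the 40th percentile, so this difference was measured at dim signals. The call ended without Col-0 water replicate 2 (-0.93, adjusted p = 0.0815) and without Col-0 drought replicate 2 (-1.06, adjusted p = 0.0571). In camta5 the drought and water arrays overlapped, and the log2 difference was -0.09 ± 0.31 (adjusted p = 0.880). The drought response of camta5 minus that of Col-0 was 1.00 ± 0.44, with an adjusted p of 0.870, so the responses were not shown to differ.

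**Figure D1:**
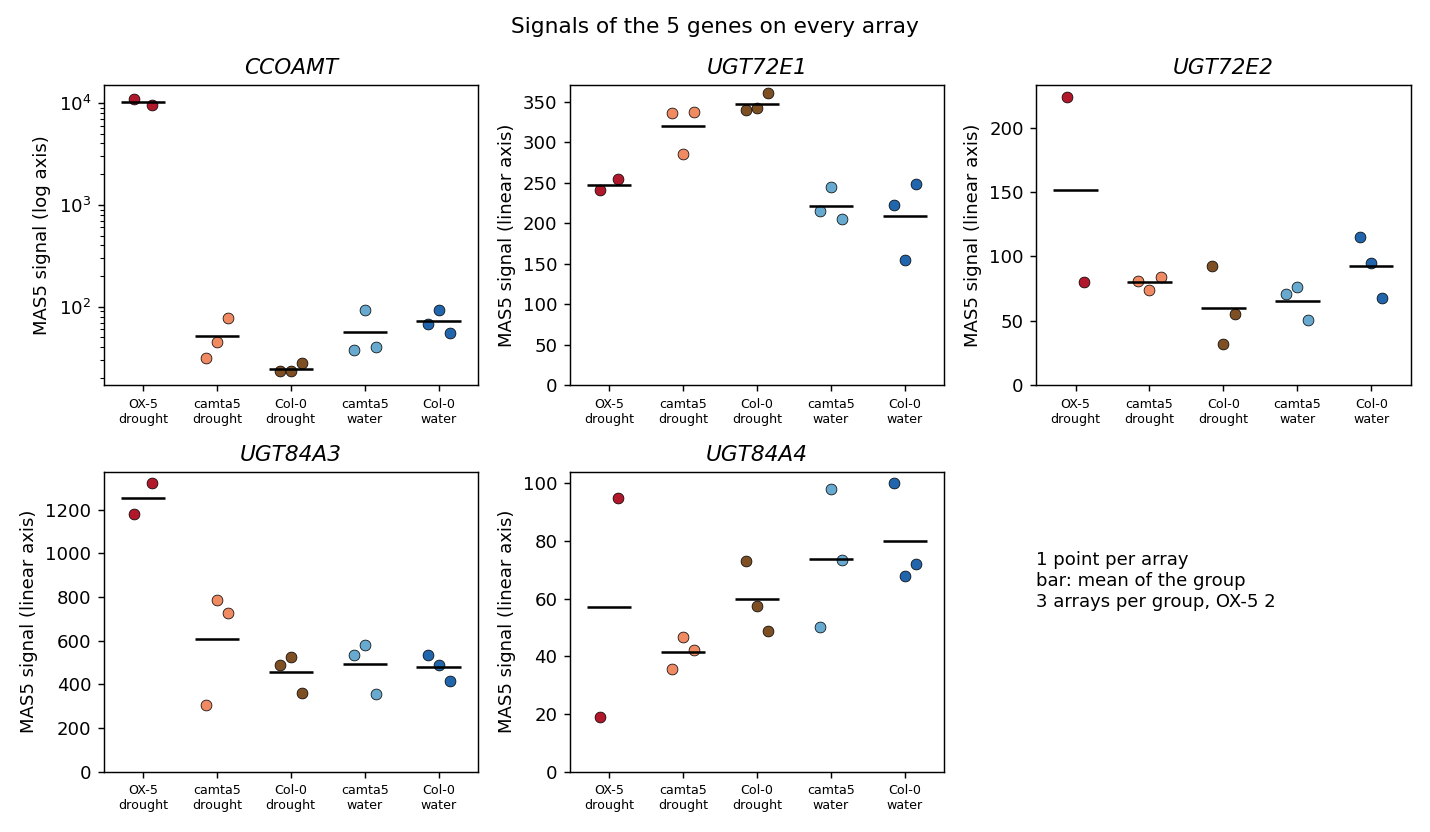
MAS5 signals of CCOAMT, UGT72E1, UGT72E2, UGT84A3 and UGT84A4 by group, with 1 point per array and a bar at the mean (2 arrays for OX-5, 3 for each other group). The axis of CCOAMT is logarithmic and the others start at 0. The OX-5 points of CCOAMT (11028 and 9508) and of UGT84A3 (1182 and 1323) lie above all other arrays, while the OX-5 points of UGT72E2 (224 and 80.2) and UGT84A4 (19.0 and 94.98) lie far apart.

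UGT72E1, which glucosylates the aldehydes of the lignin building blocks, was brighter after drought in both Col-0 and camta5. Its signal was 340, 342 and 361 on the Col-0 drought arrays, against 223, 154 and 249 on the Col-0 water arrays. In camta5 it was 337, 285 and 337 in drought and 215, 244 and 206 with water. In both lines every drought array lay above every water array. In Col-0 the means were 348 ± 11.4 in drought and 209 ± 48.9 with water (SD, n = 3 each), and UGT72E1 rose by 0.72 ± 0.19 on the log2 scale (limma, adjusted p = 0.0106). The call ended without Col-0 water replicate 2, the dimmest array (0.53, adjusted p = 0.0534). In camta5 the means were 320 ± 29.9 in drought and 222 ± 20.2 with water (n = 3 each), and the difference of 0.50 ± 0.19 was not called (adjusted p = 0.0801). The responses of the lines were not shown to differ, with a difference of -0.22 (95% interval -0.78 to 0.34, adjusted p = 0.956).

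The OX-5 arrays of UGT72E1, at 241 and 254 after drought, lay below all 6 drought arrays of the other lines and beside the brightest watered arrays. The log2 difference was -0.46 ± 0.21 from Col-0 in drought (adjusted p = 0.0798) and -0.34 ± 0.21 from camta5 in drought (adjusted p = 0.196). Neither was called. The first had an adjusted p of 0.0484 when Col-0 water replicate 2 was left out of the shared estimate of spread.

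UGT72E2, which glucosylates coniferyl and sinapyl alcohol, was dim, and its highest value was a single OX-5 array. Its signal was 224 and 80.2 in OX-5. The droughted arrays of camta5 had 81.1, 73.9 and 84.3, and those of Col-0 had 92.6, 31.6 and 55.2. The watered arrays had 70.7, 76.1 and 50.2 in camta5 and 115, 95.3 and 67.5 in Col-0. OX-5 replicate 1 was above all other arrays, and OX-5 replicate 2 was within the range of the Col-0 drought arrays, so the groups overlapped. The log2 difference from Col-0 in drought was 1.08 ± 0.42 and just passed the threshold (limma, adjusted p = 0.0441). It was 0.43 (adjusted p = 0.479) without OX-5 replicate 1, 1.74 (adjusted p = 0.00684) without OX-5 replicate 2 and, when Col-0 drought replicate 2 was left out, 0.79 (adjusted p = 0.150). The call was also lost without Col-0 drought replicate 3 (adjusted p = 0.0824), in a fit of the 5 compared arrays alone (adjusted p = 0.153), and, by a change in the shared estimate of spread, without Col-0 water replicate 1 or 2, camta5 water replicate 1 or 2 or any 1 of the camta5 drought replicates (adjusted p of 0.0507 to 0.0552). From camta5 in drought the difference was 0.67 ± 0.42 (adjusted p = 0.212), with 0.01 (adjusted p = 0.990) without OX-5 replicate 1 and 1.33 (adjusted p = 0.0311) without OX-5 replicate 2. Drought against water gave -0.58 ± 0.37 in Col-0 (adjusted p = 0.270) and 0.24 ± 0.37 in camta5 (adjusted p = 0.699). The related gene UGT72E3 (AT5G26310), for another glucosyltransferase of lignin alcohols, did not pass the filter on low values and was at 28.2 and 12.6 in OX-5, against 2.2 to 44.1 on the other arrays.

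UGT84A3, a glucosyltransferase of cinnamic acids, was brighter in OX-5 than in the other lines. Its signal was 1182 and 1323 on the OX-5 arrays. The camta5 drought arrays had 308, 789 and 726, and the Col-0 drought arrays 487, 528 and 360. With water the signals were 536, 582 and 358 in camta5 and 536, 490 and 416 in Col-0. Both OX-5 arrays lay above all 12 others, of which 2 camta5 drought arrays were the next brightest and the third camta5 drought array the dimmest. The mean was 1253 ± 99.8 (SD, n = 2) in OX-5 and 458 ± 87.5 (n = 3) in Col-0 in drought, and the log2 difference was 1.44 ± 0.33 (limma, adjusted p = 0.00247). From camta5 in drought, at 608 ± 262 (n = 3), it was 1.13 ± 0.33 (adjusted p = 0.0126), and 0.71 (adjusted p = 0.0344) without camta5 drought replicate 1, the dimmest array. The call against camta5 ended without OX-5 replicate 2 (1.05, adjusted p = 0.0726), with array weights (1.01, adjusted p = 0.0514) and in a fit of the 5 compared arrays alone (adjusted p = 0.05). Drought against water was not called in Col-0 (-0.08 ± 0.29, adjusted p = 0.875) or in camta5 (0.22 ± 0.29, adjusted p = 0.662).

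UGT84A4, the gene next to UGT84A3 in the RefSeq table and an enzyme of the same kind, was dim on all arrays and called in no comparison. It was 19.0 and 94.98 in OX-5, so that these replicates were the dimmest and one of the brightest arrays of all. The camta5 drought arrays had 35.6, 46.6 and 42.1, all below the camta5 water arrays at 50.04, 98.0 and 73.5. The Col-0 drought arrays had 73.0, 57.3 and 48.9, and the Col-0 water arrays 99.9, 67.8 and 72.0. Drought against water gave -0.61 ± 0.39 in camta5 (limma, adjusted p = 0.308) and -0.34 ± 0.39 in Col-0 (adjusted p = 0.563). OX-5 differed from Col-0 in drought by -0.27 ± 0.44 (adjusted p = 0.644), by 0.56 (adjusted p = 0.288) without OX-5 replicate 1 and by -1.10 (adjusted p = 0.0479) without OX-5 replicate 2. UGT84A1 (AT4G15480), on the other side of UGT84A3 in the same table, did not pass the filter. It was at 75.9 and 5.1 in OX-5, against 3.8 to 34.2 on the other arrays.

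Counted over the 5 genes, 3 were called for OX-5 against Col-0 in drought, all higher, where 46.7% of all tested probe sets were called and 21.7% were called higher. For OX-5 against camta5 in drought 2 were called, both higher, against 42.6% of all probe sets and 20.2% called higher. For drought against water 2 were called in Col-0, UGT72E1 higher and CCOAMT lower, beside 27.3% of all probe sets (15.6% higher and 11.7% lower), and none in camta5, beside 16.3%. An unadjusted p under 0.05 in camta5 was found for 1 of the 5, UGT72E1, and for 4901 of the 15646 probe sets. Arrays of the groups were without overlap for 3 of the 5 genes in OX-5 against Col-0 in drought (62.5% of all tested probe sets), for 3 in OX-5 against camta5 (59.8%), for 2 in drought against water in Col-0 (44.6%) and for 2 in camta5 (36.6%). With 5 genes these shares do not set the group apart from the background. The median log2 difference over the 5 genes was 1.08 for OX-5 against Col-0 in drought, against -0.04 over all tested probe sets, and -0.34 for drought in Col-0, against 0.08. With 5 genes each median is the value of a single gene, UGT72E2 and UGT84A4 in turn, and it shows no shift of the group.

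**Figure D2:**
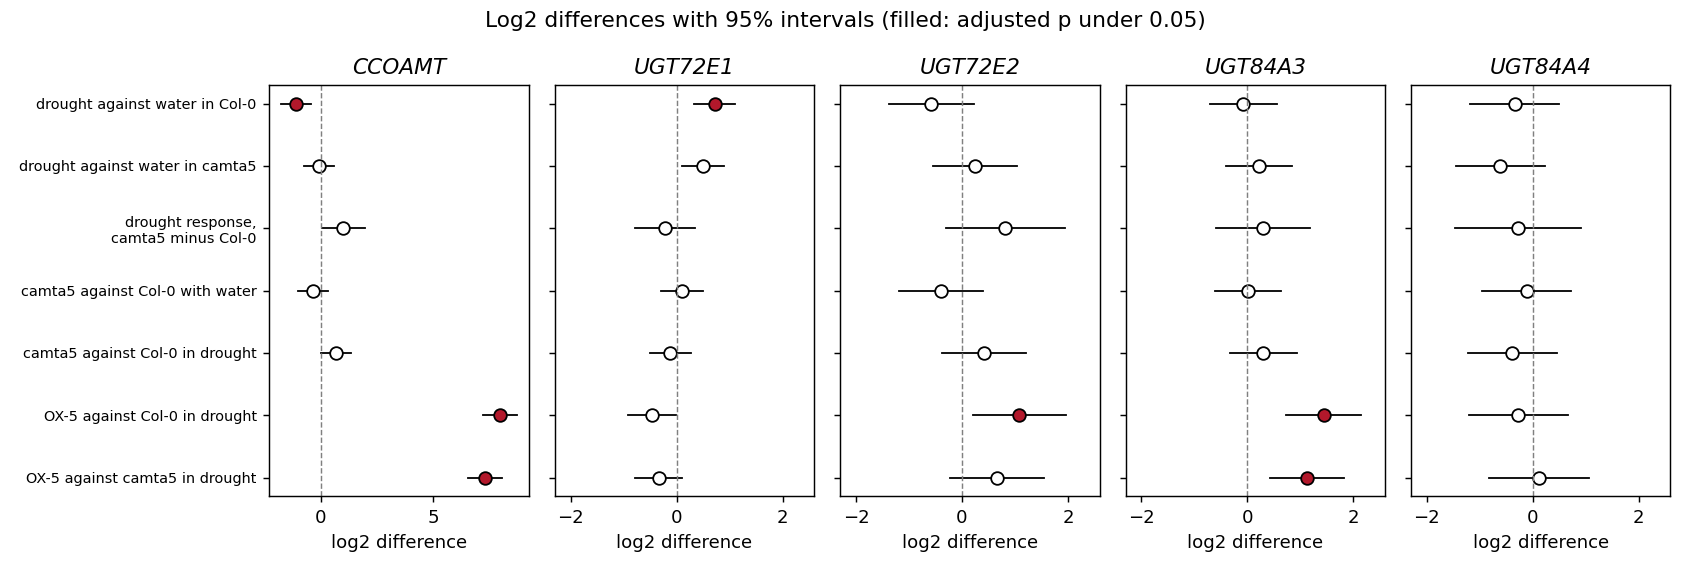
Log2 differences of the 5 genes in the 7 comparisons, with 95% intervals from limma. Filled points have an adjusted p under 0.05. The axis of CCOAMT is wider than the others, since its OX-5 differences were 7.98 and 7.31.

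Between camta5 and Col-0 none of the 5 genes was called, with water or in drought. With water 0% of all probe sets were called by limma (1000 had an unadjusted p under 0.05, none of them one of the 5), arrays of the groups overlapped for all 5 genes (15.3% of all tested probe sets were without overlap), and the 5 differences ran from -0.40 for UGT72E2 to 0.10 for UGT72E1. In drought 1.46% of all probe sets were called. CCOAMT had a mean signal of 51.4 ± 24.1 in camta5 and of 24.8 ± 2.61 in Col-0 (SD, n = 3 each), a difference of 0.67 ± 0.31 with an adjusted p of 0.336 and a 95% interval of 0.00 to 1.34. Every camta5 array of CCOAMT lay above every Col-0 array, and every camta5 array of UGT72E1 and UGT84A4 lay below, while 18% of all tested probe sets were without overlap in either direction. The differences of UGT72E1 (-0.12 ± 0.19) and UGT84A4 (-0.39 ± 0.39) had adjusted p of 0.830 and 0.702. UGT84A3 was 0.30 ± 0.29 (adjusted p = 0.691), and its camta5 drought arrays spanned 308 to 789. For the difference of the drought responses 0% of all probe sets were called (885 had an unadjusted p under 0.05, CCOAMT among them), and the 5 values ran from -0.28 for UGT84A4 to 1.00 for CCOAMT.

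In the order of mean signals, neighbouring groups mostly overlapped. For CCOAMT the order from low to high was Col-0 drought, camta5 drought, camta5 water, Col-0 water and OX-5 drought, and the middle 3 groups overlapped in sequence. For UGT84A3 the 4 groups other than OX-5 overlapped in sequence. For UGT72E1 both watered groups and OX-5 formed the lower part and the droughted camta5 and Col-0 groups the upper part, with no overlap between these parts. For UGT72E2 and UGT84A4 every neighbouring pair of groups overlapped.

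Other genes of the pathway also differed in OX-5, in both directions. Of 45 listed genes from phenylalanine ammonia-lyase to lignin, sinapate esters and coumarins, 10 were named alone by a probe set and 6 passed the filter on low values. For OX-5 against Col-0 in drought 3 were called higher and 2 lower, 83.3% of the 6, beside 46.7% of all tested probe sets. The list's median log2 difference was 0.31, against -0.04 over all tested probe sets. For OX-5 against camta5 the counts were the same, beside 42.6% of all tested probe sets, with a median of 0.28 against -0.02. With 6 genes these shares and medians do not set the pathway apart from the background.

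The largest differences upward from Col-0 in drought were those of BGLU46 (AT1G61820) and BGLU45 (AT1G61810), beta-glucosidases that release lignin alcohols from their glucosides. BGLU46 was at 1037 and 823 in OX-5, against 81.5, 43.3 and 55.2 in camta5 and 34.1, 42.8 and 35.9 in Col-0 in drought. Its log2 difference from Col-0 was 4.14 ± 0.36 (limma, adjusted p = 5.35e-07), and 3.28 with an offset of 64. BGLU45 was at 621 and 734 in OX-5, against 121, 145 and 157 in camta5 and 83.1, 70.9 and 45.6 in Col-0 in drought, a difference from Col-0 of 3.09 ± 0.37 (adjusted p = 1.09e-05). Every OX-5 array of both genes lay above all 12 other arrays. ALDH2C4 (AT3G24503), which oxidises coniferaldehyde and sinapaldehyde to the acids, was at 2540 and 2452 in OX-5, against 1614, 1354 and 1256 in camta5 and 1915, 1837 and 1801 in Col-0 in drought. It was higher in OX-5 than in camta5 by 0.83 ± 0.16 (limma, adjusted p = 0.00103). Against Col-0 it was 0.43 ± 0.16 higher with an adjusted p of 0.0441, a call that ended under 14 of the settings tried, with adjusted p of up to 0.158, among them leaving out either OX-5 array, any 1 of the Col-0 drought arrays, Col-0 water replicate 2 or 3, camta5 water replicate 1 or camta5 drought replicate 2.

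CCR2 (AT1G80820), a cinnamoyl-CoA reductase at the entry to lignin alcohols, was lower in OX-5 than in the other lines in drought. It was at 32.4 and 170 on the OX-5 arrays, against 381, 469 and 734 in camta5 and 491, 387 and 376 in Col-0 in drought. With water it was 176, 152 and 329 in camta5 and 117, 235 and 280 in Col-0. OX-5 replicate 2 thus lay within the range of the watered arrays. The log2 difference from Col-0 in drought was -2.19 ± 0.49 (limma, adjusted p = 0.00211). It was -1.22 without OX-5 replicate 1 (adjusted p = 0.0594) and -3.15 without OX-5 replicate 2. From camta5 it was -2.47 ± 0.49, and -1.50 and -3.44 without those arrays in turn, all called. UGT72B1 (AT4G01070, GT72B1 in the RefSeq table), a glucosyltransferase related to the UGT72E enzymes, was at 453 and 786 in OX-5, against 1073, 1029 and 1140 in camta5 and 1430, 1247 and 1276 in Col-0 in drought. It was lower in OX-5 by 1.12 ± 0.19 against Col-0 (limma, adjusted p = 0.000264) and by 0.84 ± 0.19 against camta5 (adjusted p = 0.00286). The second call ended without OX-5 replicate 1 (-0.45). Against Col-0 the difference was -0.73 without OX-5 replicate 1 and -1.50 without OX-5 replicate 2, both called, and against camta5 it was -1.22 without replicate 2.

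HCT (AT5G48930), a hydroxycinnamoyl transferase early in the lignin branch, was the 1 listed gene called for drought. That is 16.7% of the 6 tested in each line, beside 27.3% of all tested probe sets in Col-0 and 16.3% in camta5. Not called, though drought and water arrays did not overlap, were CCR2 (1.01 in Col-0 and 1.23 in camta5), UGT72B1 (-0.47 and -0.29) and, in camta5 only, BGLU45 (0.84). Over all tested probe sets 44.6% in Col-0 and 36.6% in camta5 were without overlap. In Col-0 HCT fell by 0.83 ± 0.16 (limma, adjusted p = 0.00210), with signals of 1462, 1340 and 1793 in drought and 2980, 2661 and 2532 with water. In camta5 it fell by 0.56 ± 0.16 (adjusted p = 0.0306), with 2262, 1658 and 2386 in drought and 3314, 2893 and 2988 with water. That second call ended without camta5 water replicate 1, 2 or 3 (adjusted p = 0.108, 0.0562 and 0.0737) or camta5 drought replicate 2 (adjusted p = 0.144). It also ended with camta5 water replicate 1 counted as Col-0 (-0.50, adjusted p = 0.107), with only the compared arrays (adjusted p = 0.0598) and with moderation without a trend (adjusted p = 0.0531). HCT was not called for OX-5, at 1787 and 1684, against Col-0 in drought (0.19 ± 0.18, adjusted p = 0.415). The list's median was -0.05 for drought in Col-0, against 0.08 over all tested probe sets, and -0.07 in camta5, against 0.04. No listed gene was called between camta5 and Col-0, beside 0% of all tested probe sets with water and 1.46% in drought.

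**Figure D3:**
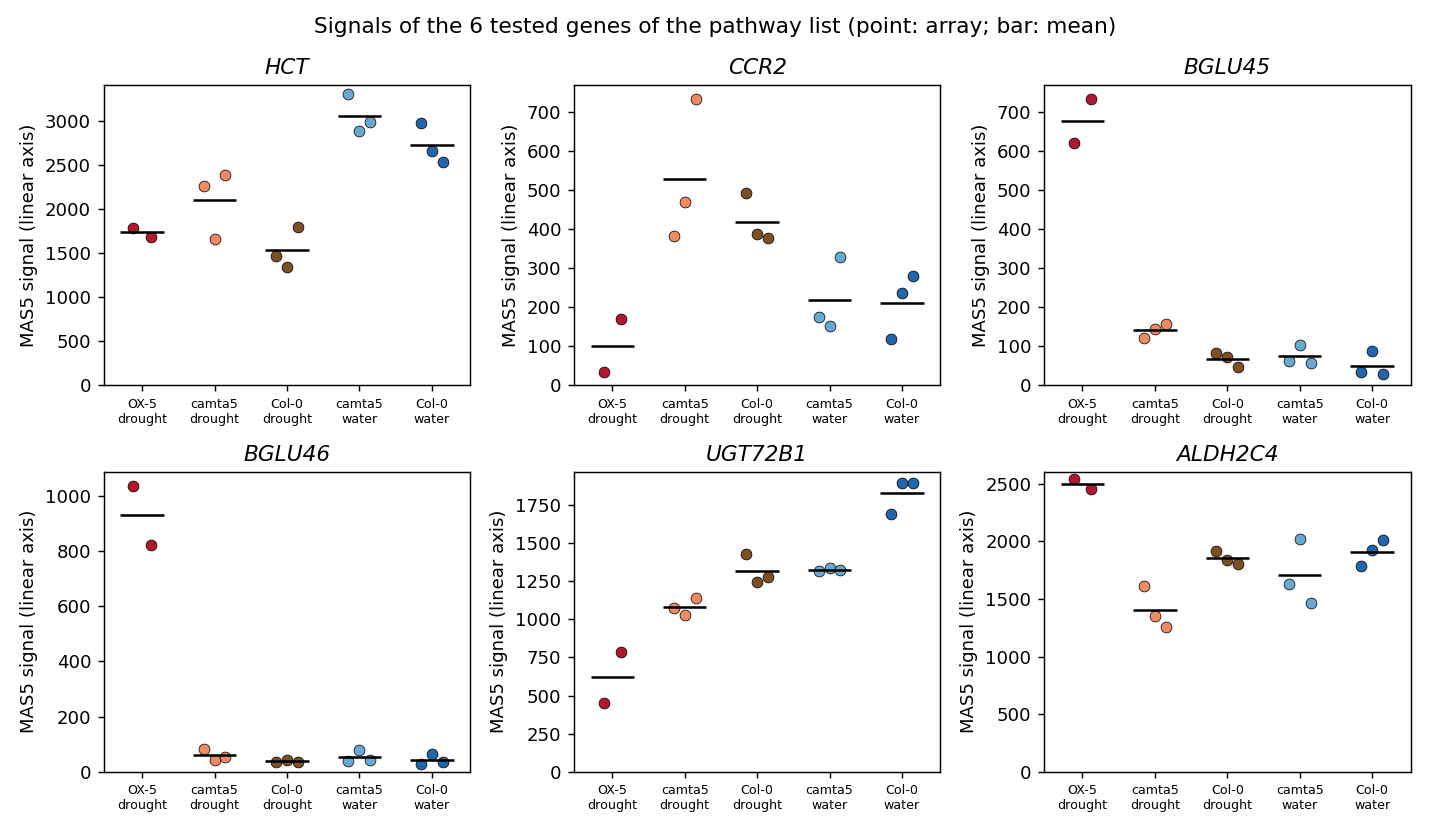
MAS5 signals of the 6 tested genes of the pathway list by group, with 1 point per array and a bar at the mean. BGLU45 and BGLU46 are highest on both OX-5 arrays (621 and 734, 1037 and 823), CCR2 and UGT72B1 are lowest in OX-5 by group mean, and HCT is lower in drought than with water in Col-0 and camta5.

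Of the other genes named UGT, glycosyltransferases of the same superfamily, 43 were named alone by a probe set and 27 were tested. In OX-5 against Col-0 in drought 12 were called higher and 6 lower. Together they were 66.7% of the 27, beside 46.7% of all tested probe sets (21.7% higher). The median log2 difference was 0.97, beside -0.04 over all tested probe sets. Of the 27, 5 had passed the filter only through the OX-5 arrays and had to be higher there, as had 565 of all 15646 tested probe sets. The share, the split and the median include these 5 genes and are not read here as a result about the family. The 27 differences ran from -3.88 for UGT78D2, a flavonoid glucosyltransferase, to 3.71 for UGT76E12, whose SE was 1.38. Drought called 6 of the 27 in Col-0, 3 in each direction (22.2%, beside 27.3% of all tested probe sets), and 2 in camta5, 1 in each direction (7.41%, beside 16.3%).

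**Figure D4:**
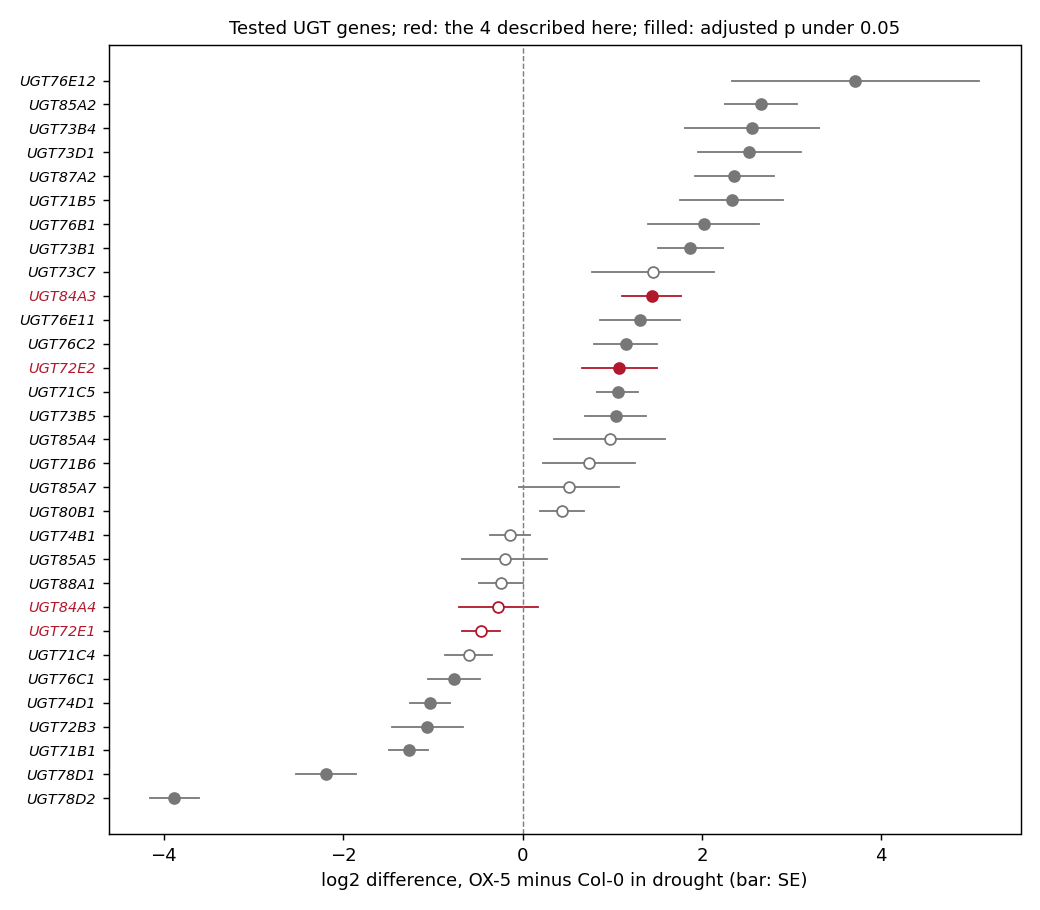
Log2 differences of OX-5 minus Col-0 in drought for the tested UGT genes, with bars of 1 SE. Red marks UGT72E1, UGT72E2, UGT84A3 and UGT84A4, and filled points have an adjusted p under 0.05. UGT84A3 and UGT72E2 are filled at 1.44 and 1.08, and UGT84A4 and UGT72E1 are open at -0.27 and -0.46.

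The profiles most like those of the 5 genes over the 14 arrays were sought among 1208 other tested genes with a symbol, by the root-mean-square distance between log2 values centred on each gene's mean. For CCOAMT, whose own SD over the arrays was 2.71, the nearest were the auxin-conjugating enzyme gene GH3.3 (AT2G23170, distance 0.57), GAT1_2.1 (AT1G15040, 0.65) and the osmotin gene OSM34 (AT4G11650, 0.73). GH3.3 averaged a signal of 2119 in OX-5, against 10.1 in camta5 and 4.84 in Col-0 in drought. GAT1_2.1 averaged 1742 in OX-5 against 8.00 in Col-0 in drought, and OSM34 averaged 2079 against 13.9. These genes were bright on the same 2 arrays, so their likeness rests on 2 samples. In every other group their mean signals were at most 25.3, so they passed the filter on low values only through the OX-5 arrays. They had to be higher there, and their likeness to CCOAMT is no separate result. For UGT84A3, with an SD of 0.60, the nearest were the tubulin gene TUA1 (AT1G64740, 0.23), the formate dehydrogenase gene FDH (AT5G14780, 0.29) and the transcription factor gene BZIP53 (AT3G62420, 0.29). TUA1 averaged 1503 in OX-5 against 895 in camta5 and 700 in Col-0 in drought. For UGT72E1, with an SD of 0.33, they were CRK (AT4G01710), PKDM7D (AT1G08620) and DI19 (AT1G56280), each at 0.20. Nearest to UGT72E2, with an SD of 0.53, were LHCB4.1, LEP and POR (0.33 to 0.35). Nearest to UGT84A4, with an SD of 0.49, were PSD, TUB9 and FHIT (0.31 to 0.35). For UGT72E1, UGT72E2 and UGT84A4 the smallest distances were 0.20, 0.33 and 0.31, against own SDs of 0.33, 0.53 and 0.49. The 5 genes were not candidates in this search. The smallest distance between members was 0.55, for UGT72E2 and UGT84A3, larger than the distances of the 3 nearest genes of either.

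**Figure D5:**
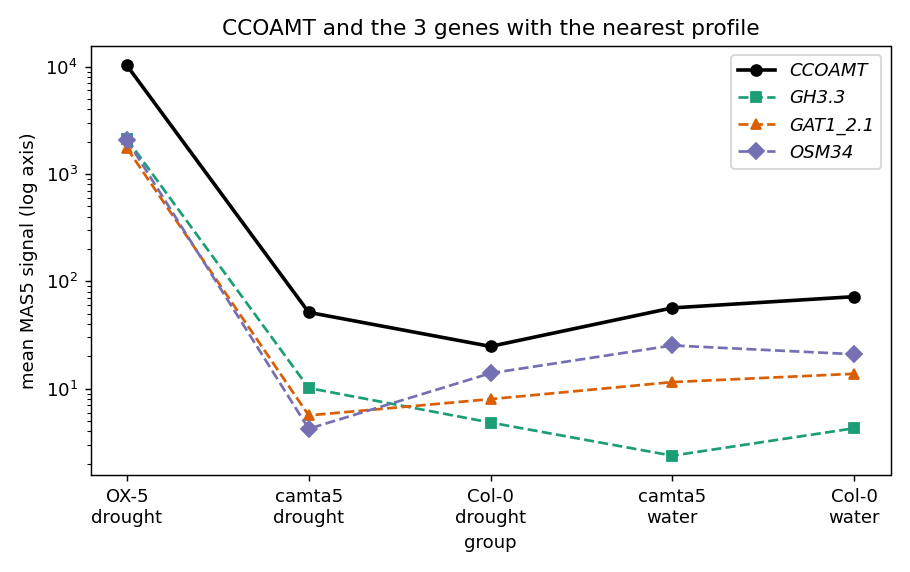
Mean MAS5 signal per group, on a logarithmic axis, of CCOAMT (solid line) and of GH3.3, GAT1_2.1 and OSM34 (dashed lines). All 4 are highest in OX-5, which the filter and the search had fixed for GH3.3, GAT1_2.1 and OSM34. The lines join groups for legibility only.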

How the data were processed

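Leaf RNA was hybridised to ATH1 arrays, 250 ng of total RNA per sample per the labels' protocols. The deposited values are MAS5 intensities, which, per the submitters' processing notes, the authors made with Affymetrix Expression Console (versions not given), and each array had a trimmed mean of 500 with 2% trimmed at each end. From these, log2(signal + 16) was computed for 22810 probe sets, without 64 control probe sets and 7100 that failed the filter (above the 40th percentile in 2 or more arrays). The other 15646 were fitted in limma 3.58.1 (R 4.3.3) with 5 group means over 14 arrays, a trend in the moderation and Benjamini-Hochberg adjustment within each of 7 comparisons. Genes were named by the platform annotation (13513 probe sets name 1 gene), and 13436 matched the RefSeq TAIR10.1 table.

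Named were the 5 genes, the called genes of the pathway list with the largest differences (at most 4 in each direction) and the 3 nearest profiles of each gene. HCT in OX-5, the genes next to them and the range of the UGT genes were named after their values were seen. The members and lists were chosen with earlier results of these data known. Alternatives were other offsets, filters, normalizations, moderation and weights, the replicate block, the regrouped array, fewer arrays and each array left out. Those for the pathway genes were added after the data were seen. The fit was tested on simulated data. The number of arrays limits the precision.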

Additional observations from a re-analysis of the deposited data

How the results depend on the processing

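Of the results for the 5 genes under the alternatives, 877 kept their direction and their side of the threshold, 21 lost and 3 gained a call and 20, all of differences that were not called, changed direction. The number of the 5 genes called for OX-5 against camta5 in drought was 1 in place of 2 with array weights and with only the compared arrays. It ran from 0 to 2 for drought in Col-0 (0 without Col-0 water replicate 2, 1 without Col-0 drought replicate 2) and from 2 to 4 for OX-5 against Col-0 when single arrays were left out. UGT72E2 in OX-5 against Col-0 was also lost with an offset of 1 (adjusted p = 0.0512), no filter (0.0658), quantile normalization (0.123) and array weights (0.0613), and without any 1 of 10 arrays. Small differences turned sign. For camta5 against Col-0 with water, UGT84A3 was 0.00 after quantile normalization, -0.01 with arrays centred on their medians, -0.10 with camta5 water replicate 1 counted as Col-0, and -0.12 to 0.22 with single arrays left out. With that array counted as Col-0, CCOAMT was 0.02 and UGT84A4 0.22. With single arrays left out UGT84A4 was -0.30 to 0.09 and UGT72E1 -0.09 to 0.23. For OX-5 against camta5 UGT84A4 was -0.15 after quantile normalization and -0.71 to 0.95 with single arrays left out, and against Col-0 it was -1.10 to 0.56. For drought in camta5 CCOAMT was 0.00 with array weights and -0.36 to 0.24 with single arrays left out, and UGT84A3 was -0.02 to 0.63. For drought in Col-0 UGT84A3 was -0.19 to 0.08. The causes were not tested. The deviations of same-numbered arrays had r from -0.16 to 0.24 (26 pairs, 2 of them over 0.1), and those of differently numbered arrays from -0.31 to 0.17. The 2 over 0.1 were both between Col-0 drought and camta5 drought (0.23 for replicate 1 and 0.24 for replicate 2). With 2 or 3 arrays per group these values cannot decide whether the numbers pair the samples. The replicate block changed no call of the 5 genes, with UGT84A3 at 1.36 in OX-5 against Col-0 (limma, adjusted p = 0.00425), and ended that of ALDH2C4 (0.39, adjusted p = 0.0878). Over all probe sets, calls for camta5 against Col-0 in drought ran from 9 (only the compared arrays) to 552 (without Col-0 drought replicate 1) around 228, those for drought in camta5 fell to 1121 of 2547 without 1 array, those for drought in Col-0 to 2601 of 4277, those for camta5 against Col-0 with water reached 44 and those for the difference of responses 37. At a 60th percentile filter UGT72E2 and UGT84A4 were not tested. Signals near the 40th percentile limit what CCOAMT outside OX-5, UGT72E2 and UGT84A4 can show.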

Other observations

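The genes nearest in profile were recomputed over the 12 arrays other than OX-5. None of the 3 nearest of CCOAMT, UGT72E1, UGT72E2 or UGT84A4 was shared with the 14-array search, and 1 of UGT84A3 was, TUA1 (distance 0.21). CCOAMT, whose SD over these arrays was 0.54, then lay nearest to BIM1 (0.30), TBL37 (0.31) and ACLA-3 (0.33). UGT72E1, with an SD of 0.36, lay nearest to GPT (0.15), ATMAK3 (0.16) and AR401 (0.16).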
